A study of Mus musculus with 6 samples.

Results

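Genes of IgA secretion and plasma cell support were examined in the middle small intestinal mucosa of alk-SMase KO and WT mice. They were chosen by name as 9 genes, Jchain, Pigr, Mzb1, Tnfrsf17, Tnfrsf13b, Ccl25, Ccl28, Derl3 and Xbp1, among the 22700 rows of the expression table. Gene identifiers stood beside the wrong rows of that table and were put back by rank, which gave a row to 7 of the 9 genes and to 12396 gene names in all. Tnfrsf17 and Tnfrsf13b had no settled row and were not analysed here. The values were FPKM, that is, fragments scaled to transcript length and to the mapped fragments of the library, a level per length that can be set side by side between genes.

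Each genotype was represented by 3 C57BL/6 mice, with 1 library per mouse. The KO libraries were K79S, K82S and K86S, from mice in which Cre-LoxP recombination had removed exon 2 of Enpp7, the gene of the intestinal alkaline sphingomyelinase (alk-SMase). The WT libraries were W83S, W89S and W90S. Where 3 values are given for a group below, they follow this order of libraries. The sources used here give neither the age nor the sex of these mice, and no treatment is named. The comparison asked whether loss of this enzyme, which splits dietary sphingomyelin to ceramide, was accompanied by different levels of the genes of the IgA system.

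Several libraries stood apart before genotype was considered. W83S held stomach and pancreas transcripts, as 8.48% of its summed FPKM came from the gastric marker genes, led by Tff1, Pgc and Gkn1, and 2.59% from the pancreatic acinar marker genes, led by Clps, Pla2g1b and Cela1, against at most 0.0181% for either list in any other library. K82S had the highest summed FPKM of the 2 restored B cell markers, Cd79b and Ly6d. The sum was 63.8 there, 4.94 in K79S, 7.50 in K86S and 23.5 to 41.6 in WT. The lowest WT sum, in W83S, was mostly Ly6d at 20.4 FPKM. Cd79b had 3.10 FPKM in W83S, near its 2.27 in K79S and 2.70 in K86S. K79S alone lacked transcripts of the Y chromosome, with Eif2s3y listed at 0 there and at 5.69 to 8.16 FPKM in the other libraries. Enpp7 (chr11:118988188-118993221, plus strand, mm10) had 129 to 669.7 FPKM in KO and 406 to 667 FPKM in WT. Its value over the whole gene therefore did not separate the genotypes, and a gene-level FPKM does not show the loss of 1 exon. The epithelial markers of the labelled tissue were high in every library, with Krt8 at 1694 to 3117, Krt20 at 1521 to 2308 and Epcam at 939 to 1502 FPKM. By summed markers of gut region, K82S and W89S stood apart from the other libraries. Their summed FPKM of the proximal markers, led by Apoa4, Fabp1 and Slc2a2, was 3832 and 4679, against 7505 to 14380 in the other libraries. Their sum of the distal markers, led by Guca2a, Slc51a and Slc51b, was 2855 and 3085, against 900.3 to 1907 in the other libraries. Those sums rest on the most abundant genes, and not every distal marker followed them. Cubn and Amn were highest in K79S, at 63.6 and 353 FPKM. They stood at 29.8 and 188 in K82S and at 29.3 and 287 in W89S. Osr2 had 35.2 FPKM in K79S, 25.5 in K82S and 35.3 in W89S.

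IgA is made by plasma cells of the lamina propria, which join its subunits into dimers with the J chain and export them through a large endoplasmic reticulum (ER). Epithelial cells take the dimers up at their base with the polymeric immunoglobulin receptor, carry them across the cell and release them as secretory IgA into the lumen. The chemokines CCL25 and CCL28 draw plasmablasts into the mucosa, and the ligands APRIL and BAFF keep plasma cells alive through the receptors TACI and BCMA.

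Promoter sequence was taken for 8 of the 9 genes as the 250 bases before the start site in RefSeq (GRCm38.p6). It was searched on both strands for letters tied to the ER stress response and to the transcription factor XBP1, which is both one of the 9 genes and a regulator of secretory genes. The unfolded protein response core was searched as TGACGT and the E-box as CACGTG. The short XBP1 element was searched as CCACG, which can overlap an E-box. The remaining letters were CCAAT, a common promoter box. Of 32851 such windows in the mouse genome 6.47% held TGACGT, 6.02% held CACGTG, 28.3% held CCACG and 33.8% held CCAAT. Only Derl3 carried the full ER stress response element, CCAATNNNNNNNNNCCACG, among the members searched, and 37 windows of the genome did so (0.113%). The windows of Derl3 and Xbp1 are shown for the secretory machinery, and those of Pigr and Jchain for the epithelial and the plasma cell side of IgA transport. Capitals mark the letters searched, on either strand, and each sequence runs 5′ to 3′ toward the start site.
Derl3, chr10:75893148-75893397, plus strand: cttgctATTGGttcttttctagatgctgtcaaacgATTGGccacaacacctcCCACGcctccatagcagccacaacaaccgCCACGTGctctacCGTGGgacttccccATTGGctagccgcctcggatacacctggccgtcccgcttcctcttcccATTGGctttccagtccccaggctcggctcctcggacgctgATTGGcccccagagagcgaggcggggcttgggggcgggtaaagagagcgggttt
Xbp1, chr11:5520391-5520640, plus strand: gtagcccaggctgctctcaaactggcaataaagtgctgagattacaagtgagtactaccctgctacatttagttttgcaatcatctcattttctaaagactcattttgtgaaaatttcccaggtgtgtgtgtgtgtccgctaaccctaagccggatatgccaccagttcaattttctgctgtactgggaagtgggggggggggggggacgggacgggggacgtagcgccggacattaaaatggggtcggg
Pigr, chr1:130826434-130826683, plus strand: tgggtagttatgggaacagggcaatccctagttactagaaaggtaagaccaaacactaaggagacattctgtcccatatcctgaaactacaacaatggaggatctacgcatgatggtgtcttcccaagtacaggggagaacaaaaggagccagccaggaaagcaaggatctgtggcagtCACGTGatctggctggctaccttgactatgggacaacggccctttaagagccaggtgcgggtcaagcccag
Jchain, chr5:88527898-88528147, minus strand: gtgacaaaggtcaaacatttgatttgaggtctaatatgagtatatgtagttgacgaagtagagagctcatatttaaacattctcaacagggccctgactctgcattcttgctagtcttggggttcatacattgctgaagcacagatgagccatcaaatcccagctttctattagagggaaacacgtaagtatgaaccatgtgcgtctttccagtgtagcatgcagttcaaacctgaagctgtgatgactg
In Derl3 the full element lay on the opposite strand, from 156 to 138 bases before the start site, and the window held 5 CCAAT boxes and 3 CCACG in all. In Pigr 1 E-box lay from 71 to 66 bases before the start site. Neither the Jchain nor the Xbp1 window held any of these letters. A match describes the letters and was not tested for binding, and the absence of a match says nothing of the factor beyond this window.

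None of the 6 members that could be tested passed the comparison of KO with WT. To pass, a gene needed an adjusted p below 0.05 and a fold change above 1.5 in either direction, in limma on log2(FPKM + 1) with Benjamini-Hochberg adjustment. Of all 13089 rows tested 1, or 0.00764%, passed, and this was Gm29008, at 4.26 to 4.75 FPKM in WT and listed at 0 in every KO library. At an unadjusted p below 0.05 the count was 0 of 6 members, where 12.5% of all rows reached it, 2.87% with higher and 9.64% with lower values in KO. Likewise 0 of 6 had KO values all above the WT values and 0 of 6 had them all below, against 5.9% and 11.3% of all rows. An exact permutation test of 3 against 3 mice cannot give a p below 0.1. Precision is set by the spread among the 3 mice of a group. FPKM do not state the reads behind a value, and no counting interval was computed. In mucosa taken in bulk, fewer cells of a type and less RNA per cell cannot be told apart.

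**Figure D1:**
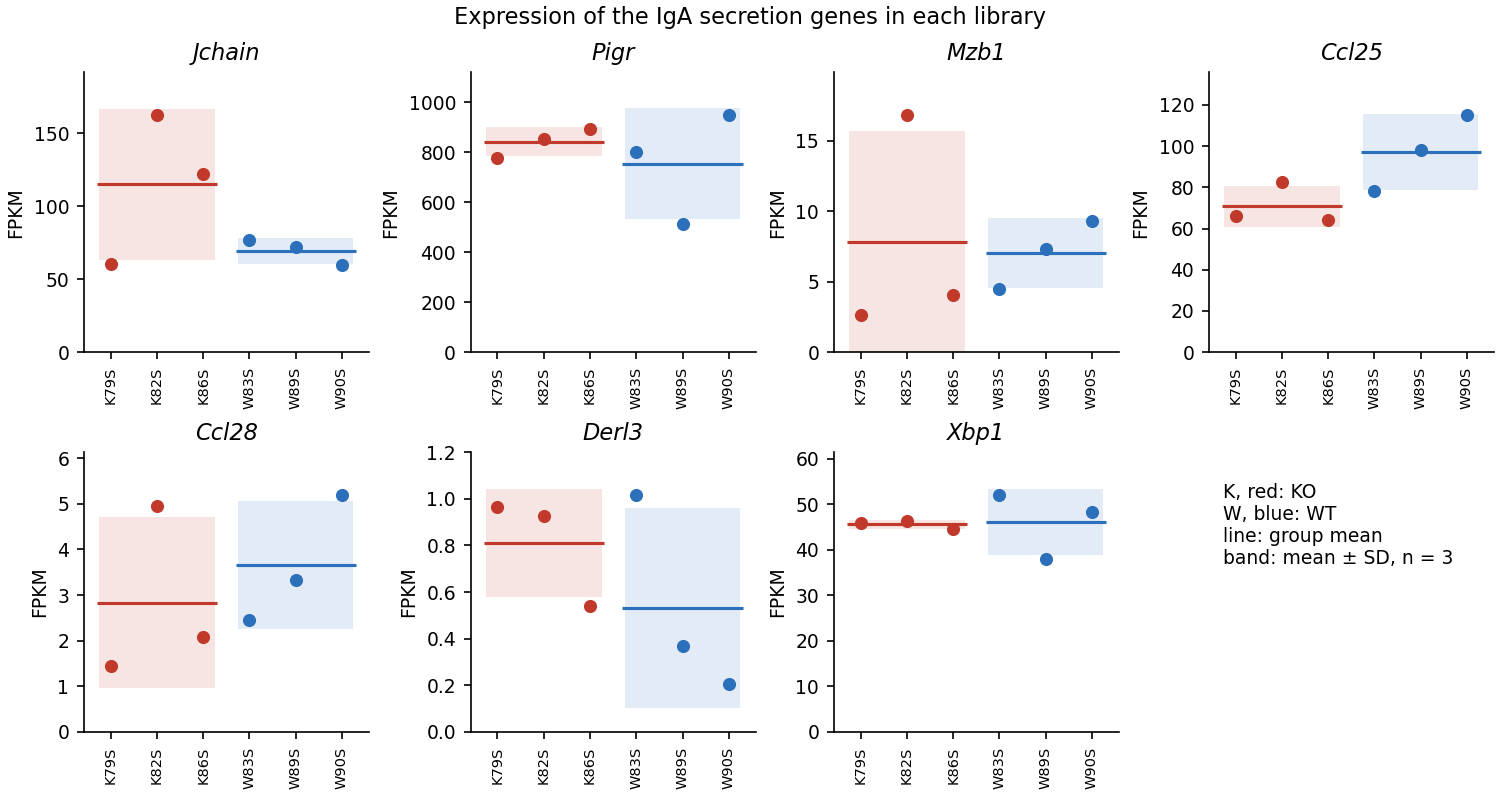
FPKM of the 7 members with a settled row in each library, KO in red and WT in blue, with the group mean as a line and a band of 1 SD on either side (n = 3). The 2 genotypes overlap in every panel, Jchain is highest in K82S at 162 FPKM, and the 3 KO values of Xbp1 lie between 44.5 and 46.3.

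The members spanned the range from among the most abundant transcripts of the mucosa to those under 1 FPKM in most libraries. Pigr was the highest, with 0.286% to 0.577% of rows above it depending on the library. Jchain, Ccl25 and Xbp1 followed, with 1.62% to 5.04%, 2.65% to 3.91% and 5.27% to 7.52% of rows above them, and the FPKM of Jchain and Ccl25 overlapped across the libraries. Mzb1 and Ccl28 stood in the middle of the table, with 14.2% to 38.3% and 29.8% to 46.8% of rows above them. Derl3 was the lowest, with 52.5% to 73.7% of rows above it.

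Among the genes of IgA assembly and transport, Jchain (chr5:88519809-88527891, minus strand) encodes the chain that links IgA monomers into dimers and is needed for their uptake by the epithelium. Its level was 60.2 FPKM in K79S, 162 in K82S and 122 in K86S, and in WT 76.7 in W83S, 71.7 in W89S and 59.4 in W90S. K82S and K86S were above all WT mice, but K79S lay beside the lowest WT mouse, so that the groups overlapped. The means were 115 ± 51.5 in KO and 69.3 ± 8.93 in WT (SD, n = 3 each). The log2 fold change was 0.62 (SE 0.37, 95% interval -0.26 to 1.49), with an adjusted p of 0.482 by limma and p = 0.3 in the exact two-sided permutation test. K79S set the low end of the KO values, and without that library the log2 fold change was 1.02 with an unadjusted p of 0.00518 and an adjusted p of 0.760 by limma. In that fit 5.56% of all rows had an unadjusted p below 0.05 by limma.

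Jchain kept a nearly fixed proportion to Igkc, the constant region of the kappa light chain, across all libraries. There were 5.17 FPKM of Jchain per 100 FPKM of Igkc in K79S, 5.18 in K82S and 5.41 in K86S, against 4.69 in W83S, 4.97 in W89S and 4.25 in W90S. The highest and lowest of these ratios differed 1.27-fold, while Jchain itself differed 2.74-fold. All 3 KO ratios were above the 3 WT ratios, at 5.25 ± 0.136 and 4.64 ± 0.362 (SD, n = 3), and the exact permutation test gave p = 0.1, its smallest value. This ratio was picked out after the values had been seen, as 1 of 9 ratios computed.

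Against Igha, the constant region of the IgA heavy chain, the proportion was less even. Jchain stood at 9.96 FPKM per 100 of Igha in K79S, 19.1 in K82S and 11.7 in K86S, and at 12.96, 13.9 and 11.7 in WT. The groups overlapped, with p = 1 in the exact permutation test, and K82S was the only library above 14. Igha itself was 605, 849.8 and 1041 FPKM in KO, and 592, 515 and 507 in WT. Every KO value of Igha was above the WT values, as in 5.9% of all rows. The log2 fold change of Igha was 0.60 (SE 0.25) with an adjusted p of 0.393 by limma, so that it did not pass. Adding Ighm, the heavy chain of IgM, which J chain also joins, left the Jchain ratio spread over 1.74-fold.

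Over the 6 libraries the restored gene most like Jchain was Igkc, by the root mean square difference of centred log2(FPKM + 1), which was 0.11 against a spread of 0.53 for Jchain itself. The next were Adamdec1 at 0.15 and Trp53inp1 at 0.20 on that scale. Adamdec1, a metalloprotease gene of gut macrophages and stroma, had 6.49, 16.2 and 15.3 FPKM in KO and 6.91, 7.79 and 5.08 in WT. Like Jchain it was high in K82S and K86S only. Igha came 23rd in this order of 12087 genes, and Ighm came 11799th. The measure also counts a difference in the width of the swings, and Ighm spanned 10.5-fold. Ighm came as late in the orders for Pigr, Ccl25 and Xbp1, at 11921st, 11817th and 11939th, so its place is not particular to Jchain.

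**Figure D2:**
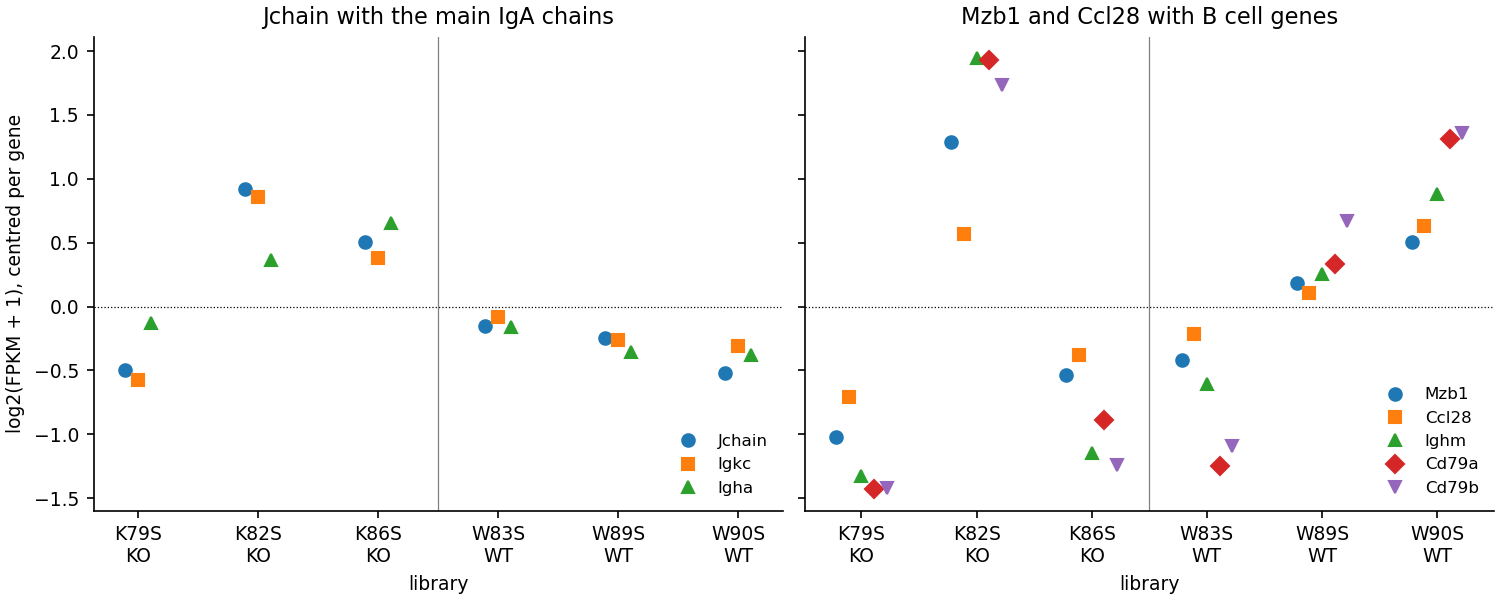
Log2(FPKM + 1) of each gene in each library, centred on the mean of the 6 libraries, with Jchain, Igkc and Igha on the left and Mzb1 and Ccl28 with Ighm, Cd79a and Cd79b on the right. Jchain and Igkc lie almost on each other in all libraries, while the genes on the right are at their lowest in K79S and, except for Ccl28, at their highest in K82S.

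Pigr (chr1:130826684-130852249, plus strand) encodes the receptor that carries dimeric IgA across the epithelium and is shed with it as secretory component. It had 778, 853 and 893 FPKM in KO, and 799, 513 and 949 in WT. The KO values lay close together and within the WT range, and W89S was the lowest of all. The means were 841 ± 58.0 in KO and 754 ± 221 in WT (SD, n = 3). As a log2 fold change this was 0.20 (SE 0.26, 95% interval -0.43 to 0.84), with an adjusted p of 0.766 by limma and an exact permutation p of 0.7. Its direction turned on W89S, without which the log2 fold change was -0.05. W89S was low in the proximal and high in the distal marker sum, as was K82S, where Pigr had 853 FPKM. The part of gut region in these values was not tested.

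Pigr did not follow the cargo it carries. The 3 genes nearest to it were Sectm1a at 0.087, Gpr55 at 0.088 and Ifit1bl2 at 0.093 on the root mean square scale, where Pigr itself spread by 0.29. All 3 were lowest in W89S, at 1.15, 1.59 and 20.5 FPKM, as Pigr was. Igha came 5422nd and Igkc 8564th in that order. Relative to Epcam, an epithelial surface gene, Pigr stood at 53.1, 56.8 and 77.7 FPKM per 100 in KO and at 85.1, 43.0 and 100.03 in WT. These ratios overlapped, with an exact permutation p of 0.6.

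Mzb1 (chr18:35647267-35649367, minus strand) encodes an ER protein of marginal zone B cells and plasma cells that helps antibody assembly and secretion. It had 2.60, 16.8 and 4.04 FPKM in KO, and 4.45, 7.30 and 9.34 in WT. K82S was the highest of the 6 libraries and the other KO libraries were the lowest, a 6.47-fold span that was the widest of the members tested. The means were 7.82 ± 7.83 in KO and 7.03 ± 2.45 in WT (SD, n = 3). As a log2 fold change this was -0.18 (SE 0.59, 95% interval -1.60 to 1.25), with an adjusted p of 0.916 by limma and an exact permutation p of 0.9. Its row has 6 decimals, which is usual for genes with 1 transcript, whereas the annotation gives Mzb1 3 transcripts, so its place in the table is less certain than that of the other members. Such short values were found for 5.80% of the restored genes with several transcripts.

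K82S decided the overlap of Mzb1 between the genotypes. Without it the KO values were all below the WT values and the log2 fold change was -0.86, at an unadjusted p of 0.0330 and an adjusted p of 0.152 by limma. In that fit 25.7% of all 12764 rows had an unadjusted p below 0.05 by limma. Of the 1184 rows that passed there, 1133 were lower in KO, and the median log2 fold change of all rows was -0.09. Mzb1 did not keep to Jchain, with 4.32, 10.4 and 3.32 FPKM per 100 of Jchain in KO and 5.80, 10.2 and 15.7 in WT. Beside it, Ighm had 9.67, 102 and 11.1 FPKM in the KO libraries and 16.5, 30.9 and 48.1 in WT. Cd79a, a chain of the B cell receptor, had 2.32, 33.1 and 3.83 in KO and 2.76, 10.3 and 21.2 in WT. All 3 genes were highest in K82S and lowest in K79S, and the part of B cell RNA and of gut region in the values of Mzb1 was not tested. In the order of likeness to Mzb1, drawn up after its values were seen, Cfp, Iglc2, Mfge8 and Cd52 came first, at 0.14 to 0.19, and Ighm came 96th.

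The survival receptors Tnfrsf17 (BCMA) and Tnfrsf13b (TACI), which mark plasma cells and receive APRIL and BAFF, were not analysed here. Their identifiers ranked 17036th and 16302nd, beyond the last settled rank, at which W83S had 0.954 FPKM. Values were available for both of their ligands. Tnfsf13 (APRIL) had 8.47, 11.2 and 15.1 FPKM in KO and 13.5, 11.1 and 16.9 in WT, with a log2 fold change of -0.25 (SE 0.24) and an adjusted p of 0.675 by limma. Tnfsf13b (BAFF) was lower, at 1.23, 1.78 and 1.97 FPKM in KO and 1.26, 0.658 and 1.33 in WT, with a log2 fold change of 0.36 (SE 0.20) and an adjusted p of 0.455 by limma. Both ligands overlapped between the genotypes. Sdc1, the syndecan that marks plasma cells and that the gut epithelium also expresses, ranged from 19.4 to 61.0 FPKM in KO and from 24.1 to 52.3 in WT. Mcl1, a survival factor inside many cell types, had 87.5 to 112 FPKM in KO and 77.6 to 107 in WT. Of 14 survival genes listed 4 were restored, and 0 of them passed, with a median log2 fold change of 0.10 where the median of all rows was -0.06.

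Of the homing chemokines, Ccl25 (chr8:4325210-4360020, plus strand) is made by small intestinal epithelium and attracts cells that carry CCR9. It had 66.0, 82.4 and 64.3 FPKM in KO, and 78.3, 98.2 and 115 in WT. Only K82S reached into the WT range, where it lay just above W83S. The means were 70.9 ± 9.996 in KO and 97.2 ± 18.4 in WT (SD, n = 3). As a log2 fold change this was -0.44 (SE 0.21, 95% interval -0.93 to 0.05), with an unadjusted p of 0.0700, an adjusted p of 0.404 by limma and an exact permutation p of 0.2. This was the smallest unadjusted p among the members.

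The overlap of Ccl25 rested on 2 libraries. Without K82S the log2 fold change was -0.55 with an adjusted p of 0.156 by limma, and without W83S, the library with stomach and pancreas RNA, it was -0.59 with an adjusted p of 0.542. Of all rows 25.7% had an unadjusted p below 0.05 by limma without K82S, and 8.65% did without W83S. Genes that followed Ccl25 most closely were Gm15877 at 0.040, Rcc1 at 0.048 and Sdhaf1 at 0.048 on the root mean square scale, where Ccl25 spread by 0.30. Rcc1, a regulator of nuclear transport, had 4.63, 5.46 and 4.32 FPKM in KO and 5.71, 7.13 and 8.08 in WT. Like Ccl25 it was highest in W90S and lowest in K86S.

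Ccl28 (chr13:119623819-119654359, plus strand) attracts IgA plasmablasts through CCR10, mainly in the colon and other mucosae. It had 1.45, 4.96 and 2.09 FPKM in KO, and 2.45, 3.33 and 5.20 in WT. K79S and K86S were the lowest of the 6 libraries, and K82S was second only to W90S. The means were 2.83 ± 1.87 in KO and 3.66 ± 1.40 in WT (SD, n = 3). As a log2 fold change this was -0.35 (SE 0.37, 95% interval -1.23 to 0.54), with an adjusted p of 0.705 by limma and an exact permutation p of 0.4. Without K82S it was -0.72 with an adjusted p of 0.176 by limma, in a fit in which 1133 of the 1184 rows that passed were lower in KO.

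Ccl28 was far below Ccl25 in each library, at 2.20, 6.02 and 3.25 FPKM per 100 of Ccl25 in the KO libraries and 3.13, 3.38 and 4.52 in the WT libraries. Ccr9 and Ccr10, the receptors of these chemokines, had no settled row. Of the 11 homing genes listed 2 were restored. Itgb7, a chain of the integrin that binds the gut vessel wall and of the one that holds T cells in the epithelium, had 5.17, 7.79 and 4.81 FPKM in KO and 2.69, 3.92 and 4.15 in WT. Its KO values were all above WT, as were those of 5.9% of all rows. Itgb7 had a log2 fold change of 0.58 (SE 0.21) and an adjusted p of 0.393 by limma, and it did not pass. Cxcr4, a receptor of lymphocytes and plasma cells, had 0.326, 6.25 and 1.48 FPKM in KO and 1.03, 2.58 and 5.42 in WT, with K82S again the highest.

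**Figure D3:**
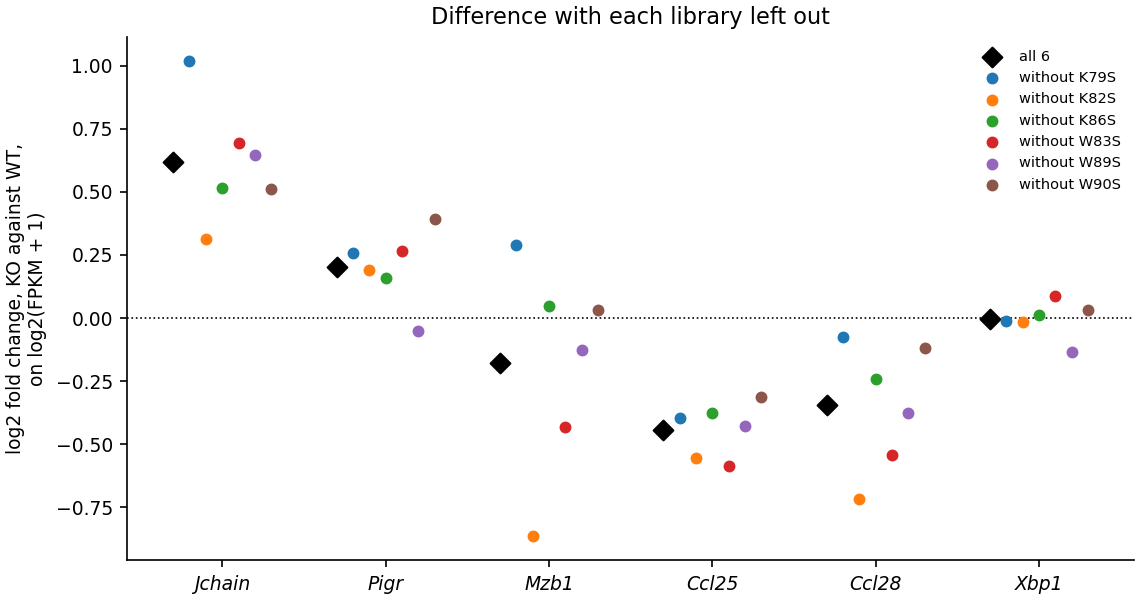
Log2 fold change (KO minus WT, on log2(FPKM + 1)) of the 6 tested members with all 6 libraries, as a diamond, and with each library left out in turn. Without K82S the values of Mzb1, Ccl25 and Ccl28 are -0.86, -0.55 and -0.72, and without K79S that of Jchain is 1.02.

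Xbp1 (chr11:5520659-5525893, plus strand) encodes the transcription factor that widens the secretory pathway of plasma cells and of Paneth and goblet cells. It had 45.8, 46.3 and 44.5 FPKM in KO, and 52.1, 37.9 and 48.3 in WT. The KO values lay within the WT range. The means were 45.5 ± 0.907 in KO and 46.1 ± 7.31 in WT (SD, n = 3). As a log2 fold change this was -0.01 (SE 0.17, 95% interval -0.41 to 0.40), with an adjusted p of 0.992 by limma and an exact permutation p of 1. Its sign was not stable, at 0.18 after scaling to equal summed FPKM. A gene-level FPKM does not separate the spliced, active form of Xbp1 mRNA from the unspliced form.

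Derl3 (chr10:75893413-75895941, plus strand), an ER-associated degradation gene and known target of XBP1 in secretory cells, was the least abundant member. It had 0.963, 0.924 and 0.542 FPKM in KO, and 1.02, 0.367 and 0.207 in WT. Only W83S reached 1 FPKM, so that Derl3 was removed with the low rows and was not tested in limma. W83S is also the library with pancreatic RNA, and that tissue's part in its Derl3 value was not tested. The means were 0.810 ± 0.233 in KO and 0.531 ± 0.429 in WT (SD, n = 3), with an exact permutation p of 0.4. Its relatives Derl1 and Derl2 were higher, with Derl1 at 34.6 to 38.1 FPKM in KO and 30.0 to 43.1 in WT, and Derl2 at 4.79 to 5.50 in KO and 3.17 to 6.00 in WT. Both overlapped between the genotypes. None of the 3 Derlin genes separated KO from WT, although only Derl3 of them failed the filter.

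The other genes of the secretory pathway were read from a list of 38 genes of the XBP1 and IRE1 branch, ER folding and export, all of which were restored and tested. None passed, 3 (1 higher and 2 lower in KO) had an unadjusted p below 0.05 where 12.5% of all rows did, and the median log2 fold change was -0.12, with values from -0.62 to 0.32. The most abundant were Calr, Hspa5 and Hsp90b1. Calr, a calcium-binding chaperone, had 259, 248 and 219.8 FPKM in KO and 237, 195 and 230.0 in WT. Hspa5, the chaperone BiP, had 88.6, 136 and 104 FPKM in KO and 158, 107 and 151 in WT, with a log2 fold change of -0.34 and an adjusted p of 0.554 by limma. Hsp90b1, the chaperone GRP94, had 80.6 to 124 FPKM in KO and 89.6 to 137 in WT. All 3 chaperones overlapped between genotypes.

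Within that list Edem1, which extracts misfolded glycoproteins, was above WT in every KO mouse, at 25.2, 22.5 and 23.6 FPKM against 18.9, 18.02 and 19.6. Its log2 fold change of 0.32 had an adjusted p of 0.393 by limma. Ssr4, a translocon subunit, was below WT in every KO mouse, at 15.0, 21.7 and 15.7 FPKM against 22.1, 26.9 and 26.8. Its log2 fold change of -0.52 had an adjusted p of 0.393 by limma. These and Sdf2l1, at 30.9 to 37.3 FPKM in KO and 38.4 to 52.5 in WT, were the only genes of the 38 whose groups did not overlap, 1 above and 2 below, beside 5.9% and 11.3% of all rows. W83S was the highest library for 13 of the 38, and the share of all rows for which it was highest was not computed. It is also the library with stomach and pancreas RNA, whose part in these values was not tested. Without K82S, 4 of the 38 passed, Pdia6, Sec11c, Ssr4 and Fkbp11, all lower in KO, in a fit in which 9.28% of all rows passed.

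**Figure D4:**
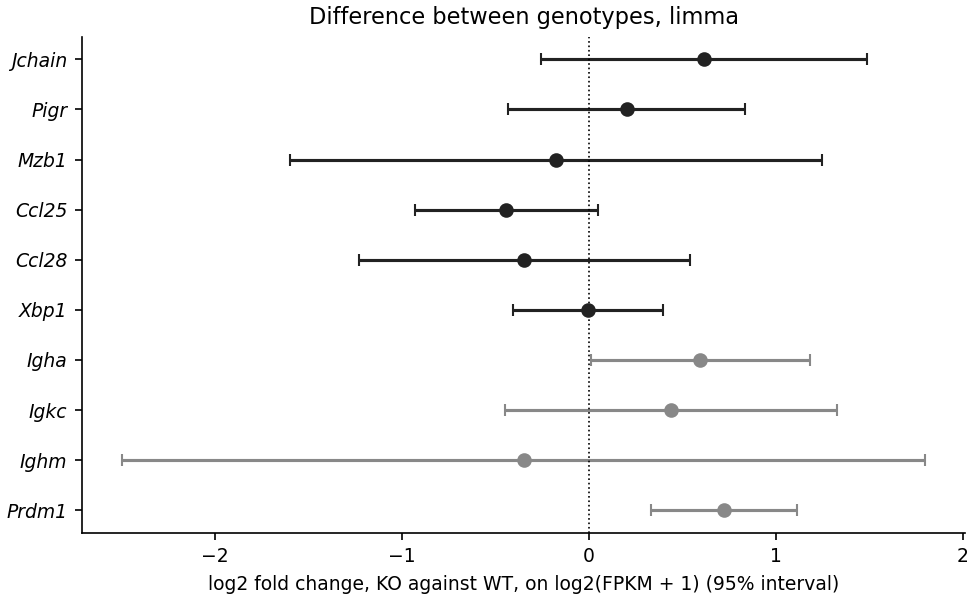
Log2 fold change (KO minus WT, on log2(FPKM + 1)) with its 95% interval by limma for the 6 tested members, in black, and for Igha, Igkc, Ighm and Prdm1, in grey. The intervals of the 6 members all include 0, with Ccl25 at -0.93 to 0.05 the closest to leaving it.

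Of the 17 genes listed for the epithelial passage of IgA and the signals that induce Pigr, 16 were tested and 0 passed, with a median log2 fold change of 0.11. Rab25, a small GTPase of the apical recycling endosome through which IgA passes, had 36.6, 55.1 and 33.2 FPKM in KO and 62.2, 57.9 and 56.3 in WT. Every KO value was below WT, as in 11.3% of all rows, and the log2 fold change was -0.52 (SE 0.22) with an adjusted p of 0.393 by limma. The most abundant genes of the list were Il17rc at 65.2 to 125 FPKM in KO and 59.4 to 112 in WT, Ifngr2 at 65.0 to 81.6 and 59.1 to 75.1, and Tnfrsf1a at 60.5 to 81.2 and 54.6 to 60.9. All 3 are receptors of cytokines, and all 3 overlapped.

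The cargo itself was read from 11 immunoglobulin constant genes, of which 7 were restored and 0 passed, with a median log2 fold change of 0.06. Igkc had 1165, 3135 and 2253 FPKM in KO and 1636, 1444 and 1397 in WT, with a log2 fold change of 0.44 and an adjusted p of 0.629 by limma. Iglc1, a lambda constant gene, had 65.7 to 238 FPKM in KO and 126 to 174 in WT. Ighg2b, the IgG2b heavy chain, had 1.73, 72.6 and 2.75 FPKM in KO and 1.78, 10.8 and 12.4 in WT, so that nearly all of it in KO came from K82S. Near-identical constant genes can share reads, and the lambda genes are uncertain for that reason. Without K82S and W83S, 3 of the 7 passed, Ighm, Iglc3 and Ighg2b, all lower in KO, in a fit in which 8.88% of all rows passed and 8.55% passed as lower. That fit leaves out the library that was highest of the KO mice and the one that was lowest of the WT mice for these 3 genes. Igha and Igkc were high in K82S and K86S, whereas Ighm, Ighg2b, Iglc2 and Iglc3 were high in K82S alone among KO mice.

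Of the transcription factors of plasma cells and B cells, 4 of 12 were restored and 0 passed, with a median log2 fold change of 0.17. Prdm1, which encodes the factor Blimp-1 of plasma cells and is also expressed by T cells and epithelium, had 2.56, 3.64 and 2.55 FPKM in KO and 1.62, 1.25 and 1.21 in WT. Its KO values were all above WT, as were those of 5.9% of all rows. Its log2 fold change was 0.72 (SE 0.16) with an unadjusted p of 0.00350 and an adjusted p of 0.393 by limma. Ell2, an elongation factor of antibody secreting cells, had 7.23 to 10.3 FPKM in KO and 5.86 to 8.25 in WT. Spib, a factor of B cells and of the follicle epithelium, had 1.85, 8.16 and 3.28 FPKM in KO and 1.23, 5.05 and 6.81 in WT. Both overlapped between the genotypes.

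Marker lists of the cell types were set beside these values. The summed FPKM of the 8 restored plasma cell markers of 14, led by Txndc5, Creld2 and Sdc1, was 131 to 214 in KO and 142 to 170 in WT. None of the 8 passed. In 2 of them, Prdm1 and Edem1, all KO values were above WT, and in 0 all were below, beside 5.9% and 11.3% of all rows. By limma 3 of the 8 had an unadjusted p below 0.05, 2 higher and 1 lower in KO, where 12.5% of all rows did. Only 2 of 14 B cell markers were restored, Cd79b and Ly6d. The defining B cell marker Ms4a1 had none. All 6 restored T cell markers of 11 were above WT in every KO mouse, where 5.9% of all rows were, with summed FPKM of 28.1, 40.2 and 23.4 in KO and 18.9, 15.7 and 15.7 in WT. Their median log2 fold change was 0.63, and none passed, with an adjusted p of 0.393 by limma for Cd3e, a CD3 chain, and for Lck, a kinase of T cell receptor signalling. T cells also express Itgb7 and Prdm1, and the part of T cell RNA in those values was not tested. Of the follicle markers 2 of 11 were restored and 0 passed, with Marcksl1 highest in K82S at 67.8 FPKM. Of the 9 epithelial markers 0 passed, with a median log2 fold change of 0.21. None of the tested smooth muscle (led by Acta2, Tagln and Des), proximal and distal small intestine genes passed either, at medians of 0.10, -0.21 and 0.25 over 4, 6 and 6 genes.

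**Figure D5:**
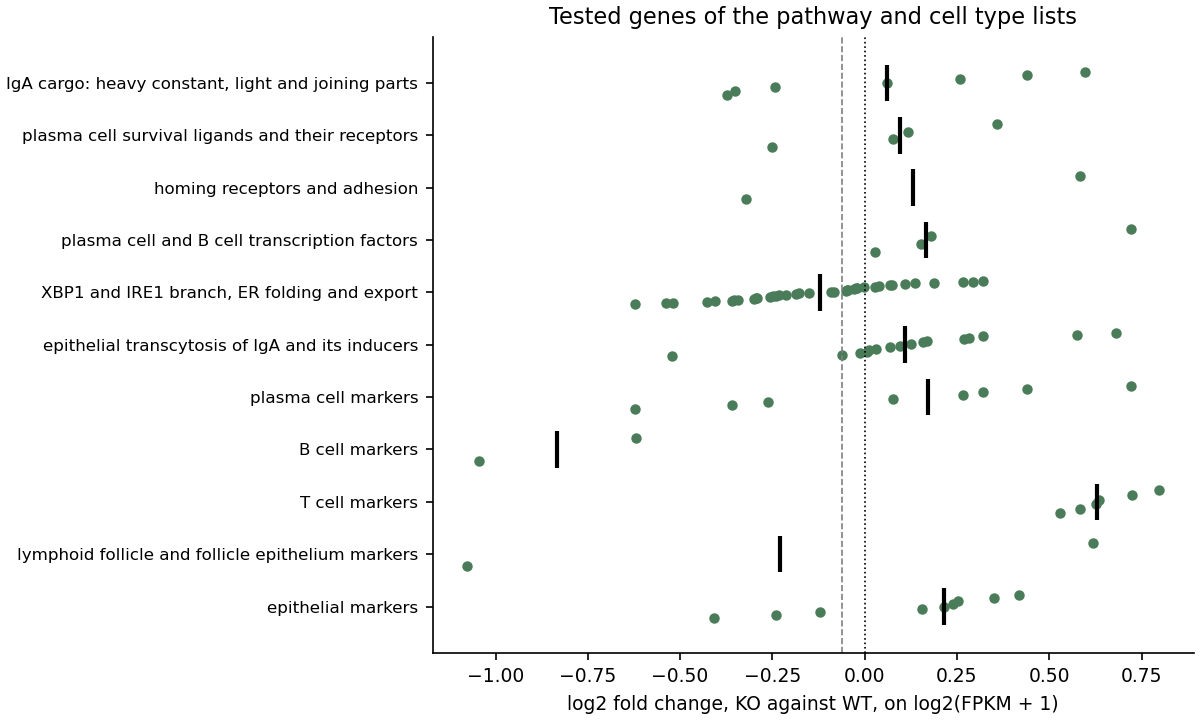
Log2 fold change (KO minus WT, on log2(FPKM + 1)) of each tested gene of 11 gene lists, with a bar at the median of each list and a dashed line at the median of all rows, -0.06. The T cell markers lie above 0 with a median of 0.63, and the 38 genes of the ER list lie around -0.12.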

How the data were processed

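Libraries of mucosal RNA from 3 KO and 3 WT mice were compared. The authors trimmed 50 bp single-end reads, mapped them to mm10 with HISAT2 and quantified genes with StringTie, and they deposited FPKM values, 1 per gene and library. The strand setting and the annotation are not given in the sources used here. FPKM are not counts, so no count model was run. Low values showed no whole-read steps, and the reads behind each value are not given. The study lists mapped reads per library, fewest for K86S and most for W83S, and these were not used here. Summed FPKM per library was 393152 to 495362. All 6 columns were used, and 0 columns of per-sample values were left out.

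Identifiers were ranked by the K79S value beside them and rows by W83S, and each identifier was moved to the row of its rank plus an offset given for 12 ranges of ranks. This placed 12402 identifiers, of which 12397 had a symbol in GENCODE M21 (GRCm38, the assembly of mm10), and coordinates are from that annotation. After the move 99.7% of the 3649 genes with 1 transcript had at most 6 decimals, against 5.80% of the 8748 others, and as deposited the shares were 33.9% and 34.3%. Genes under about 1 FPKM in W83S, and a few between the ranges, have no settled row, so marker lists are incomplete.

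Rows with FPKM of at least 1 in fewer than 2 libraries were removed (9611). The other 13089 rows, 12093 of them named, were fitted as log2(FPKM + 1) with limma 3.58.1 in R 4.3.3 (lmFit, then eBayes with trend), without covariates, two-sided, with Benjamini-Hochberg adjustment. Fold changes are on that scale, which understates changes of low genes. Single values had an exact two-sided permutation test (Python 3.11.15). Tested on simulated data for KO against WT with 13089 rows and 200 rows moved by 2 on the log2 scale, the fit recovered 200 at an SD of 0.2, with 6 false calls. At each row's own SD it recovered 160, with 10 false calls.

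Genes were named as the members, the 3 most abundant restored genes of each list and any that passed, the 3 genes most like Jchain, Pigr and Ccl25, and Enpp7. Other genes were named after their values were seen. Members, lists and the offsets were chosen with earlier results of these data known. Alternatives were 2 other pseudocounts, 2 other filters, 2 other scalings, array weights, only restored rows, each library left out and, chosen after seeing the data, K82S and W83S both left out. No library was dropped or imputed in the reported fit. Some results are not reported here.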

Additional observations from a re-analysis of the deposited data

How the results depend on the processing

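The count of members that passed was 0 in all 15 alternatives. The count of all rows that passed was 1, and it was 0 with a pseudocount of 0.1 or 0.01, 2 with array weights, 0 to 1184 with 1 library left out, and 1111 without K82S and W83S. The value of 1184 was reached without K82S, and the cause was not tested. Members whose KO values were all above WT numbered 0 to 1 with 1 library left out, the 1 being Jchain without K79S. Members whose KO values were all below WT numbered 0 to 3, the 3 being Mzb1, Ccl25 and Ccl28 without K82S, and also 3 without K82S and W83S. In that last fit their log2 fold changes were -1.12, -0.70 and -0.91, with adjusted p of 0.0569, 0.0857 and 0.0999 by limma. Smaller groups overlap less often, and the share of all rows without overlap was not computed for these smaller fits. Of the rows that passed, 1133 of 1184 without K82S and 1069 of 1111 without both libraries were lower in KO.

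Jchain, Ccl25 and Ccl28 kept their direction in all 15 alternatives, at 0.31 to 1.02, -0.70 to -0.25 and -0.91 to -0.08, with adjusted p of 0.368 to 0.767, 0.0857 to 0.760 and 0.0999 to 0.971 by limma. Xbp1 turned to 0.18 with equal summed FPKM, 0.13 with quantile normalization and 0.075 without K82S and W83S. With 1 library left out Xbp1 ranged from -0.14 to 0.087, positive without K86S, W83S or W90S. Mzb1 ranged from -0.86 to 0.29 and was positive without K79S, K86S or W90S. Pigr ranged from -0.052 to 0.39 and was negative without W89S. Their adjusted p ranged from 0.634 to 0.995, 0.0569 to 0.992 and 0.502 to 0.933 by limma. Equal summed FPKM moved the median of all rows from -0.06 to 0.08, and the median of the 38 ER genes from -0.12 to 0.05. Of 254 medians of gene lists recomputed, 27 changed sign and 8 moved by more than 1 SD.

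No paired analysis was possible because the labels give the mice no shared numbers, although the study calls them matched. With 3 mice a group, a limma p-value sets the difference against the spread between mice, which limma moderates over all rows fitted. Reads behind each value were not worked out, so how much of the spread of low genes such as Derl3 and Ccl28 is counting error was not tested.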

Other observations

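Genes of lymphocytes outside the IgA pathway divided the libraries in other ways. The T cell markers Cd3e, Cd3g and Cd8a, components of the T cell receptor complex and its coreceptor, were each higher in all 3 KO mice, as were 5.9% of all rows. Cd8a had 7.04, 11.1 and 6.05 FPKM in KO and 5.44, 3.84 and 3.87 in WT. The log2 fold changes of these 3 genes were 0.80, 0.58 and 0.72, none of which passed, with an adjusted p of 0.393 for each by limma. Ccl20, a chemokine of the epithelium over lymphoid follicles, had 18.7 FPKM in W90S and 0.156 to 2.17 FPKM in the other libraries.

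In the fit without K82S and W83S, in which 1111 of 12510 rows passed and 1069 of these were lower in KO, Ighm had a log2 fold change of -1.80, Iglc3 of -1.85 and Ighg2b of -1.97, each with an adjusted p of 0.0335 by limma. In the same fit Cd79a had -1.98 and Cd79b -2.35, with adjusted p of 0.0498 and 0.0335 by limma. With all 6 libraries their log2 fold changes were -0.35, -0.37, 0.26, -0.26 and -0.62, and 0 of these 5 genes passed. Each group held 2 mice in the smaller fit, which was added after the values had been seen, and which leaves out the highest KO and the lowest WT library for all 5 genes.

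Cubn, the receptor of intrinsic factor in the distal small intestine, was higher in each KO mouse, at 63.6, 29.8 and 44.98 FPKM against 14.9, 29.3 and 15.7 in WT. Its log2 fold change was 1.17 (SE 0.36) with an adjusted p of 0.393 by limma. The lowest KO value, 29.8 in K82S, lay just above 29.3 in W89S. Of the 6 tested distal markers 1, Cubn, had KO values all above WT and 0 had them all below, beside 5.9% and 11.3% of all rows. Guca2a had a log2 fold change of -0.13, and the median of the 6 was 0.25.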
